A study of Mus musculus with 12 samples.

Results

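The BCL2 family decides in many cells whether the outer membrane of the mitochondria stays closed or is opened during apoptosis. The 10 members described here were taken by name from the 55401 genes listed, namely Bcl2, Bcl2l1, Mcl1, Bax, Bak1, Bcl2l11, Bbc3, Pmaip1, Bid and Bad. All 10 exceeded the minimum set for the test, which was 10 normalized counts in at least 6 libraries, and were thus among the 13792 genes tested. RNA was measured in 12 libraries of airway organoids, which are epithelial spheres grown from lung cells of adult C57BL/6J wild-type mice. In the 6 ablation dishes, 10 neighboring cells in each of 45 organoids were destroyed with a femtosecond laser, and in the 6 control dishes, also with 45 organoids each, no cell was ablated. Both groups were harvested 4.5 h after the laser treatment, had been moved to the imaging medium FluoroBrite DMEM beforehand, and carried a lentiviral reporter for a histone 2A-mCherry fusion protein driven by a p63 promoter that was amplified from human DNA. Each ablation dish has a control dish of the same number (pairs 1, 3, 4, 5, 6 and 7), passage label and culture day, the latter between day 14 and day 20. Pairs 1, 3 and 5 belong to library set 1 and pairs 4, 6 and 7 to library set 2. Controls 4, 6 and 7 are labelled as untreated, yet their titles read ablation after a number with the letter C. They were taken as controls. RNA came from whole organoids, so only 10 cells per organoid were targeted among all the cells whose RNA was pooled. The labels do not name the animals behind each culture, and p-values measure the spread between dishes.

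In healthy cells, the anti-apoptotic proteins BCL2, BCL-XL (encoded by Bcl2l1) and MCL1 hold the effectors BAX and BAK in check. BH3-only proteins, named after the short BH3 helix that they share with the rest of the family, bind in the groove of the anti-apoptotic proteins or activate the effectors directly. Once BAX and BAK assemble into pores, cytochrome c leaves the mitochondria and caspases are activated. Much of this control works through protein binding, cleavage, phosphorylation and turnover, which RNA counts do not show.

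The BH3 helix can be located in the coding sequences. To show what the members have in common, 42 coding bases around the BH3 core are given for 9 of them, 5′ to 3′ on the coding strand. Pmaip1 was left out whatever its search result, so its absence here does not mean that it lacks a BH3 core. Capitals mark the 6 codons of the core, which runs from the leucine that enters the binding groove to the aspartate that most BH3 domains carry.
Bcl2: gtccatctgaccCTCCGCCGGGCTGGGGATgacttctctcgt
Bcl2l1: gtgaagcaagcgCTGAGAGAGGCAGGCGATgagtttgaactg
Mcl1: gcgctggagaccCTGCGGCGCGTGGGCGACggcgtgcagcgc
Bax: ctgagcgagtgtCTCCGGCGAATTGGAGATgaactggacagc
Bak1: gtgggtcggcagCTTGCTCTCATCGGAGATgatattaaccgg
Bcl2l11: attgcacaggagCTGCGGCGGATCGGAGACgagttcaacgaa
Bbc3: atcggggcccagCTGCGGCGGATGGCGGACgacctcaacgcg
Bid: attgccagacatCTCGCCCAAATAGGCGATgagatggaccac
Bad: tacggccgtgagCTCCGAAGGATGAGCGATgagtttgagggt

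These sequences come from the longest coding transcript of each gene in GENCODE vM21 on GRCm38, and each lies within a single exon. On the minus strand they are at chr1:106712572-106712613 (Bcl2, exon 1 of 2), chr2:152829694-152829735 (Bcl2l1, exon 2 of 3), chr7:45465994-45466035 (Bax, exon 3 of 6), chr17:27022528-27022569 (Bak1, exon 4 of 6) and chr6:120897286-120897327 (Bid, exon 4 of 6). On the plus strand they are at chr3:95659424-95659465 (Mcl1, exon 1 of 3), chr2:128147138-128147179 (Bcl2l11, exon 3 of 4), chr7:16313761-16313802 (Bbc3, exon 3 of 4) and chr19:6950780-6950821 (Bad, exon 3 of 4). The core was searched as a leucine codon, any 3 codons, a codon for glycine, alanine or serine, and an aspartate codon. The small residue of the pattern was alanine in Bbc3, serine in Bad and glycine in the other members shown. Each of the 9 coding sequences held the pattern once. It is short and loose, as 7380 of 22091 other coding genes (33.4%) held it as well, so it marks the place of the BH3 helix in these members and does not single out the family.

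The members differed widely in their RNA level. Levels between genes were compared as normalized counts per kilobase of exon, averaged over the 12 libraries, because a long transcript collects more reads. Mcl1, whose protein is short-lived and has to be made continuously, was by far the most abundant with 3847 ± 439 normalized counts per kilobase (SD, n = 12). It lay in the 97.9th percentile of the genes tested. The effector genes Bak1 (1016 ± 77.9) and Bax (817 ± 58.2) followed, and then the BH3-only gene Pmaip1 (564 ± 118), whose product NOXA binds mainly MCL1. Bad, encoding a BH3-only protein that growth factor signaling keeps inactive by phosphorylation, had 393 ± 40.3, and Bcl2l1 had 364 ± 23.1 normalized counts per kilobase. Bid, whose protein links death receptors to the mitochondria after cleavage by caspase 8, stood at 164 ± 17.7, and Bbc3, encoding PUMA, at 149 ± 11.1, both near the median of 169 for all genes tested. The lowest levels were those of the founding member Bcl2 (69.4 ± 9.41) and of Bcl2l11, encoding BIM (53.1 ± 10.1). From Mcl1 to Bcl2l11, the mean level fell by a factor of 72.5.

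The order was sharp between some neighbors and not between others. In all 12 libraries, Mcl1 exceeded Bak1, Bak1 exceeded Bax, Bax exceeded Pmaip1, Bcl2l1 exceeded Bid and Bbc3 exceeded Bcl2. Pmaip1 exceeded Bad in 10 libraries, Bad exceeded Bcl2l1 in 8, Bid exceeded Bbc3 in 8 and Bcl2 exceeded Bcl2l11 in 10, so that these neighbors did not separate in every library. The 3 anti-apoptotic genes thus stood at the top, in the middle and near the bottom of the order. Exon lengths are the union over all transcripts of a gene, and gene-level counts do not separate isoforms such as the long and short forms of Bcl2l1.

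**Figure D1:**
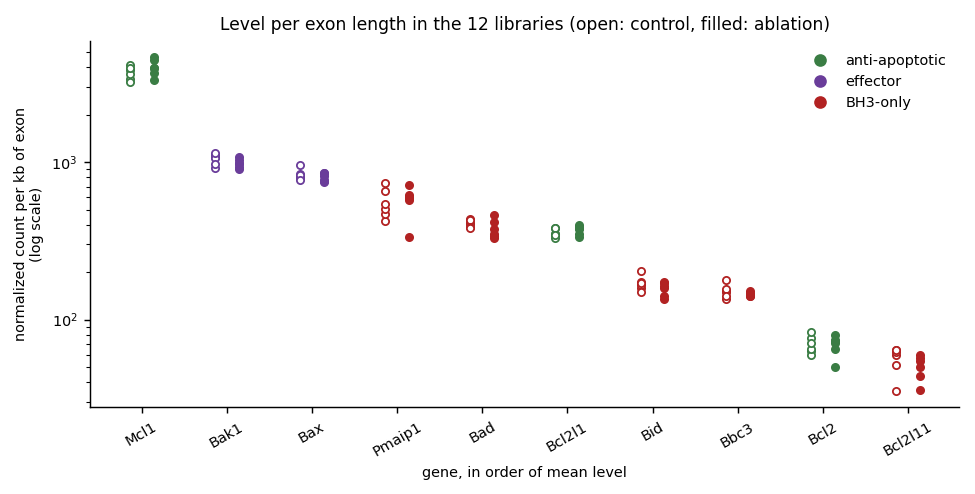
Normalized counts per kilobase of exon on a log axis, with genes ordered by their mean over the 12 libraries; open circles are control and filled circles ablation libraries, and color gives the role of the protein. Mcl1 lies above every other member in every library, whereas Bcl2 and Bcl2l11 lie lowest.

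The question of the study design for this family is whether its genes changed in RNA level 4.5 h after a small, local injury. None of the 10 members passed an adjusted p-value of 0.05, neither in a limma fit on condition and library set (the set model), by which 0% of all 13792 genes tested were called, nor in a fit on condition and pair (the pair model), by which 1.09% were called (150 genes). That number was 90, 8 and 77 without pairs 3, 4 and 5, and 0 with plain in place of trended, robust eBayes. At an unadjusted p-value under 0.05, the set model had 0 of the 10 members against 7.85% of all genes, and the pair model had 3 (Mcl1, Bid and Bad) against 17.6%, or 2433 genes. Ablation and control values overlapped in all 10 members, and groups that did not overlap made up 0.457% of all genes. Bid was the only member that changed in the same direction in all 6 pairs, which was the case for 9.8% of all genes. Of the members, 3 had a log2 fold change above 0 and 7 below 0, with a median of -0.06 and a range from -0.15 to 0.11, while the median of all genes tested was 0.00. Of all 13792 genes, 6689 were above 0 and 7103 below 0. As this is bulk RNA, a change in the number of cells that express a gene and a change in RNA per cell cannot be told apart.

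**Figure D2:**
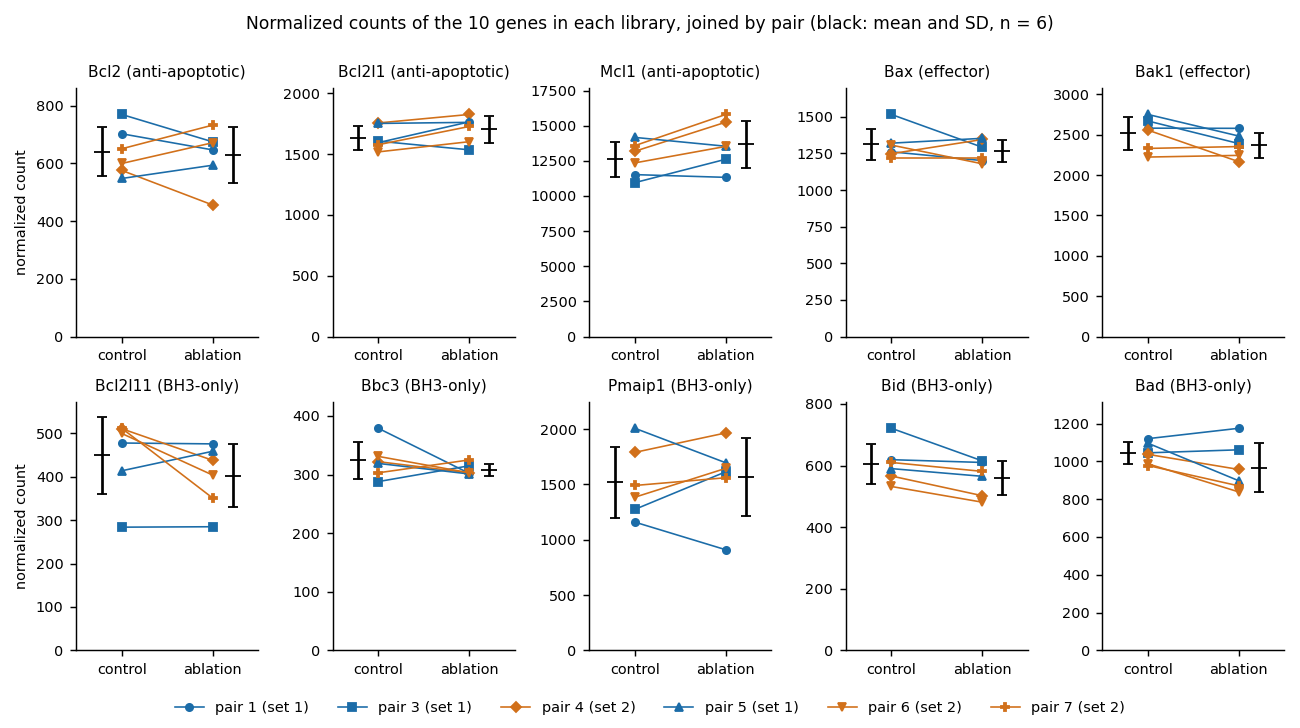
Normalized counts of each member in the control and ablation libraries, with lines joining dishes of a pair, colors for the library sets, and black bars for the mean and SD of 6 libraries; each axis starts at 0. The values of both groups overlap for every gene, with Bid the only member in which all 6 lines fall.

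Among the anti-apoptotic genes, Mcl1 and Bcl2l1 had higher means after ablation and Bcl2 did not. Mcl1 (ENSMUSG00000038612.16, chromosome 3 from 95658788 to 95663176) ranged from 10948 to 14167 normalized counts in the control (median 12767) and from 11325 to 15800 after ablation (median 13532). The highest ablation values, in pairs 4 and 7, lay above every control, and the others lay within the control range. The log2 fold change of Mcl1 was 0.11 (95% interval -0.04 to 0.27 in the set model and 0.01 to 0.21 in the pair model), with adjusted p-values of 0.732 and 0.227. It was higher in 4 of 6 pairs, lower by 0.02 in pair 1 and by 0.07 in pair 5. Bcl2l1 (ENSMUSG00000007659.18, chromosome 2 from 152780668 to 152831728) was among the steadiest members, with 1519 to 1757 normalized counts in the control (median 1601) and 1536 to 1827 after ablation (median 1745). It exceeded its control in 5 of 6 pairs and changed by 0.06 on the log2 scale (adjusted p = 0.825 in the set model and 0.482 in the pair model of limma). Bcl2 (ENSMUSG00000057329.7, chromosome 1 from 106538178 to 106714274) had 548 to 770 normalized counts in the control (median 625) and 456 to 733 after ablation (median 660). Its pairs were divided, 3 higher and 3 lower, from -0.33 in pair 4 to 0.17 in pairs 6 and 7, and the mean change was -0.03 on the log2 scale (adjusted p of 0.964 and 0.858, respectively, in limma).

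Both effector genes had slightly lower means after ablation, and neither passed the test. Bax (ENSMUSG00000003873.11, chromosome 7 from 45461697 to 45466898) had 1217 to 1516 normalized counts in the control (median 1284) and 1179 to 1353 after ablation (median 1254). Control 3 was high, with 1516 against at most 1320 in the other control libraries, and pair 3 had the largest fall (-0.23). Over all pairs the log2 fold change of Bax was -0.05 (adjusted p = 0.855 and 0.625 in the limma models), and without pair 3 it was -0.02. Bak1 (ENSMUSG00000057789.14, chromosome 17 from 27019810 to 27029009) had 2224 to 2752 normalized counts in the control (median 2570) and 2166 to 2580 after ablation (median 2372). Its decreases came from pairs 3, 4 and 5 (-0.16, -0.24 and -0.15), while pairs 1, 6 and 7 differed by at most 0.01. The log2 fold change of Bak1 was -0.09 (95% interval -0.19 to 0.01 in the set model), and limma's adjusted p was 0.678 by set and 0.323 by pair.

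Of the 5 BH3-only genes, 4 had lower means after ablation. Bid (ENSMUSG00000004446.12, chromosome 6 from 120891930 to 120916853) had 532 to 721 normalized counts in the control (median 600) and 481 to 615 after ablation (median 573). Each ablation dish lay below its own control, by 0.02 in pair 1 up to 0.23 in pair 3 on the log2 scale, although the groups as a whole overlapped. The log2 fold change of Bid was -0.12, with a 95% interval of -0.27 to 0.03 in the set model and -0.23 to -0.01 in the pair model, and adjusted p-values of 0.710 and 0.260. Its exons share 628 bases with Bcl2l13 on the opposite strand, a gene with 4536 normalized counts. The kit kept the strand, but whether the counting used it is not given in the sources used here, so some reads of the shared bases may be assigned to either gene.

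Bad (ENSMUSG00000024959.14, chromosome 19 from 6941861 to 6951899) had 978 to 1120 normalized counts in the control (median 1041) and 838 to 1175 after ablation (median 927). The ablation dishes of pairs 5, 6, 7 and 4 lay below all control libraries, and that of pair 1 lay above them. The log2 fold change was -0.12 (limma's adjusted p was 0.692 by set and 0.270 by pair), and Bad was lower in 4 of 6 pairs. Bad shares 524 exonic bases with Gpr137 on the opposite strand (567 normalized counts), with the same limit on strand.

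Bbc3 (ENSMUSG00000002083.13, chromosome 7 from 16308393 to 16318205), a target gene of p53, was nearly equal in all ablation libraries. It had 301 to 325 normalized counts there (median 303) and 288 to 379 in the control (median 320), the highest being control 1. Its log2 fold change was -0.06 (adjusted p = 0.856 and 0.683 in the limma models), and 4 of 6 pairs were lower. Pmaip1 (ENSMUSG00000024521.8, chromosome 18 from 66458533 to 66465565), which p53 and the integrated stress response both induce, varied most. It had 1159 to 2007 normalized counts in the control (median 1437) and 909 to 1965 after ablation (median 1629). Pairs 3, 4, 6 and 7 were higher after ablation (by 0.34, 0.14, 0.25 and 0.07), and pairs 1 and 5 were lower (-0.35 and -0.24). The mean log2 fold change of Pmaip1 was accordingly 0.03, with a wide 95% interval of -0.33 to 0.39 in the set model (adjusted p = 0.979).

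Bcl2l11 (ENSMUSG00000027381.16, chromosome 2 from 128126038 to 128162547), which is under FOXO control in many cells, had the lowest log2 fold change of the members. It had 284 to 512 normalized counts in the control (median 489) and 285 to 476 after ablation (median 421), a mean change of -0.15 on the log2 scale (95% interval -0.48 to 0.17, adjusted p = 0.828 in the set model and 0.356 in the pair model). Without pair 7 the change was -0.08. The decrease came from library set 2. There, the controls of pairs 4, 6 and 7 had 511, 500 and 512 normalized counts and the ablation dishes had 438, 404 and 351. In library set 1, the controls of pairs 1, 3 and 5 had 478, 284 and 414 and the ablation dishes had 476, 285 and 459. Accordingly, the response was -0.36 in set 2 and 0.05 in set 1, and the difference between the sets was -0.40 (95% interval -0.68 to -0.13, unadjusted p = 0.00710, adjusted p = 0.487 by limma, for the interaction of condition and set in a fit that also held the pair). Of the 10 members, 1 had an unadjusted p-value under 0.05 in this test, against 7.88% of all genes.

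The intervals limit how large a change these data allow. In the pair model, the 95% interval of the fold between ablation and control reached at most from 0.793 (lower bound of Bcl2l11) to 1.17 (upper bound of Pmaip1), and in the set model from 0.716 (Bcl2l11) to 1.31 (Pmaip1). In library set 1, the titles of the controls match their treatment label. In this set the log2 fold changes were 0.03 for Bcl2l1, 0.04 for Mcl1, 0.05 for Bcl2l11, -0.06 for Bcl2, -0.07 for Bad, -0.08 for Pmaip1, -0.09 for Bax and Bbc3, and -0.10 for Bak1 and Bid. In library set 2 they were 0.19 for Mcl1, 0.15 for Pmaip1, 0.09 for Bcl2l1, 0.00 for Bcl2, -0.01 for Bax, -0.04 for Bbc3, -0.07 for Bak1, -0.13 for Bid, -0.17 for Bad and -0.36 for Bcl2l11. Bcl2l11 and Pmaip1 thus pointed in opposite directions in the sets, and the set difference of Pmaip1 was 0.24 (95% interval -0.12 to 0.59).

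**Figure D3:**
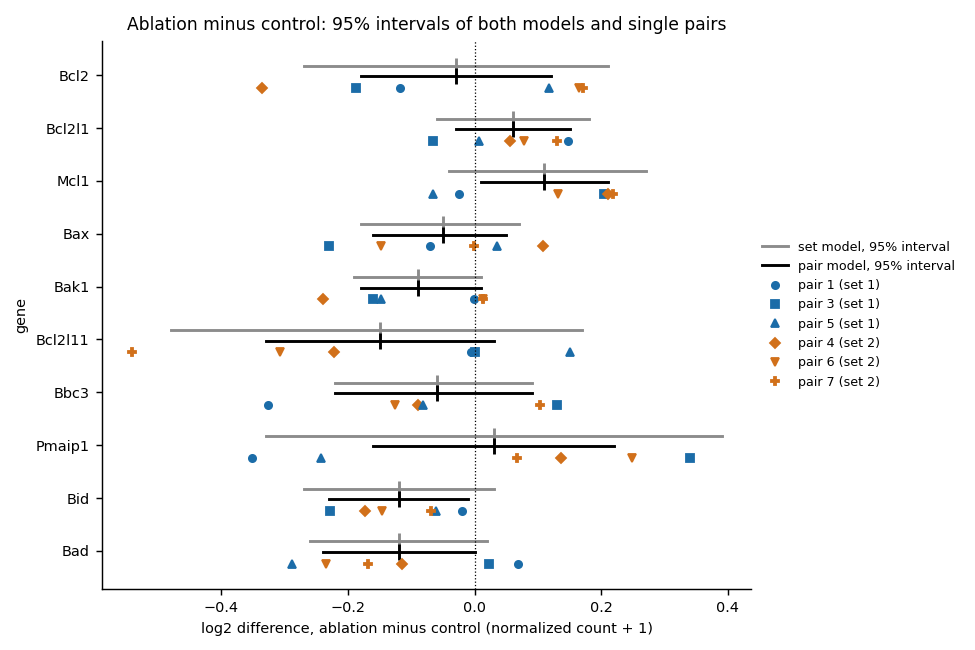
Log2 difference between ablation and control for each member, with the 95% interval of the set model in gray, that of the pair model in black, and the 6 pairs as symbols colored by library set. The pairs of Bcl2l11 separate by library set, those of Bid all lie below 0, and the intervals of the pair model leave out 0 for Mcl1, Bid and, narrowly, Bad.

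Opposing partners can be compared within a library, where their ratio does not depend on the size factor. The log2 ratio of Bax to Bcl2 changed by -0.02 ± 0.26 from control to ablation (SD, n = 6 pairs), and that of Bax to Bcl2l1 by -0.11 ± 0.12. The ratio of Bcl2l11 to Mcl1 changed by -0.27 ± 0.35, from -0.76 in pair 7 to 0.22 in pair 5. For Pmaip1 and Mcl1, whose products bind each other, the change was -0.08 ± 0.18. Each of these ratios was higher in 2 pairs and lower in 4, and each mean change was smaller than its SD between pairs. The SD gives the spread of single pairs and not the error of the mean, and the ratios were not tested.

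The members varied between cultures as well as between the dishes of a pair. When the variation of the log2 values over the 12 libraries was divided into culture (the 6 pairs), condition and remainder, the culture took 83.8% of the sum of squares in Pmaip1, 78.3% in Bid, 77.2% in Bcl2l11 and 75.0% in Bcl2. For Mcl1 and Bcl2l1 it took 73.8% and 71.9%. As each pair lies within a library set, the share of the culture also holds any difference between the sets. The lowest shares were found for Bad (62.4%), Bak1 (61.1%), Bax (57.1%) and Bbc3 (27.9%), and the median over all genes tested was 67.6%. The condition took 0.3% in Pmaip1 to 17.3% in Bad, with a median of 5.5% over all genes. The culture has 5 degrees of freedom and the condition 1, so that with no effect of either the shares would be about 45.5% and 9.1% on average. These are means, and the median of a share with 1 degree of freedom lies lower, so 9.1% is no measure for the median over all genes. Per degree of freedom, the condition exceeded the culture in 3 members, namely Bad (17.3% against 12.5%), Bak1 (16.7% against 12.2%) and Bbc3 (11.1% against 5.6%), and was close to it in Bid (15.6% against 15.7%). The share of all genes with this order was not computed. This order is no test of the condition, which within pairs is weighed against the remainder, also with 5 degrees of freedom. The remainder took 61.0% in Bbc3, 22.2% in Bak1, 20.3% in Bad and 6.0% in Bid. Pmaip1 and Bcl2l11 were also the members with the widest total spread, with standard deviations of 0.328 and 0.302 on the log2 scale (79.0th and 75.8th percentile of all genes tested). Bcl2l1 and Bax were the steadiest, with 0.0917 and 0.0992.

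**Figure D4:**
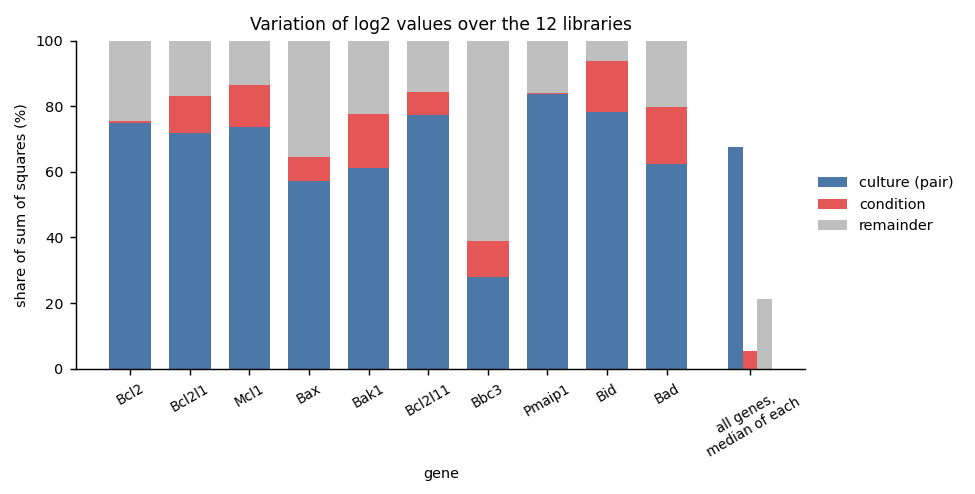
Share of the sum of squares of the log2 values that goes to the culture, the condition and the remainder, stacked for each member, with the median of each share over all 13792 genes tested as separate bars on the right. The share of the culture includes differences between the library sets and has 5 degrees of freedom against 1 for the condition. It is the largest in every member except Bbc3, where the remainder is larger.

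The labels give a culture day, and early (day 14 and 15) and late cultures (day 18, 19 and 20) were compared within each condition, with 3 libraries against 3 and the library set as the second factor. Passage label and day are not independent of each other. The early pairs were 1 (passage label number 14), 4 and 5 (both 15), and the late pairs were 3 (14), 6 and 7 (both 16). No member had an adjusted p-value under 0.05 in either condition. At an unadjusted p-value under 0.05 there were 0 members in the control, against 7.04% of all genes, and 2 in the ablation libraries (Bcl2 and Bcl2l11), against 5.07%. In the control, no member had early and late libraries that did not overlap (10.8% of all genes), and after ablation this held for 4 members, Bcl2, Bcl2l1, Bcl2l11 and Bbc3 (10.3% of all genes). The mean of Bcl2 was higher in late than in early cultures in both conditions, with 609 ± 82.6 against 673 ± 87.2 normalized counts in the control (early against late, SD, n = 3) and 566 ± 98.6 against 694 ± 34.1 after ablation (log2 difference 0.37, adjusted p = 0.972 in limma). Bcl2l11 had lower means in late cultures, with 468 ± 49.7 against 432 ± 128 normalized counts in the control and 458 ± 18.7 against 347 ± 59.7 after ablation (log2 difference -0.47, adjusted p = 0.972 in limma). In the control, the log2 difference of Bcl2l11 was -0.33 and rested on control 3 (284 normalized counts), as it was -0.02 without this library, while it was -0.64 without control 4. The other late controls, 6 and 7, had 500 and 512.

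The response to ablation itself was compared between late and early cultures as well. Pmaip1 was the 1 member with an unadjusted p-value under 0.05, against 5.82% of all genes. In early cultures, Pmaip1 had 1651 ± 440 normalized counts in the control and 1523 ± 549 after ablation (SD, n = 3), and in late cultures 1383 ± 108 and 1606 ± 42.7. The difference of its responses was 0.37 on the log2 scale (95% interval 0.10 to 0.64, unadjusted p = 0.0117, adjusted p = 0.818 by limma, in a fit of the same kind). All 3 late pairs were higher after ablation, whereas of the early pairs only pair 4 was. For the other 9 members the difference lay between -0.26 (Bcl2l11) and 0.20 (Bbc3).

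**Figure D5:**
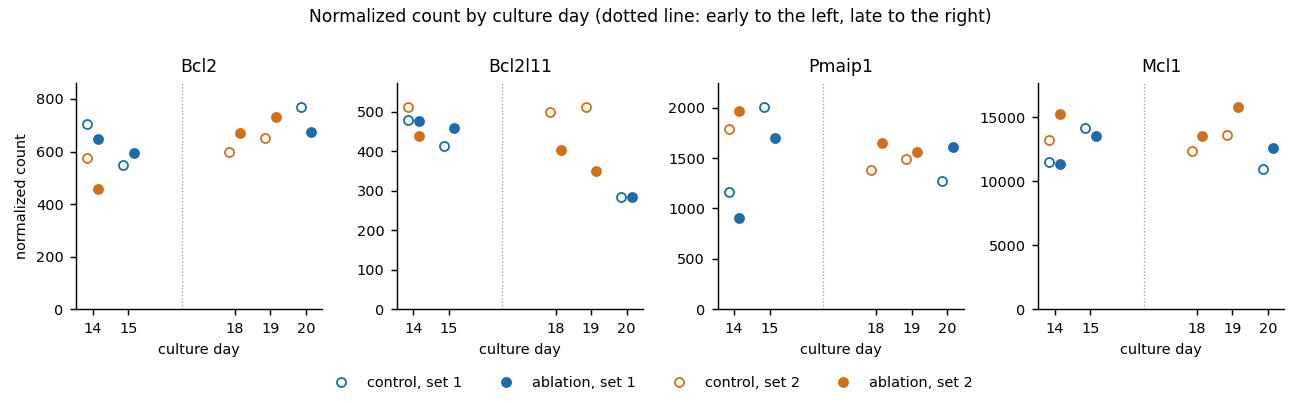
Normalized counts of Bcl2, Bcl2l11, Pmaip1 and Mcl1 by culture day, with open circles for control, filled circles for ablation, colors for the library sets and axes that start at 0; the dotted line separates early from late cultures. In Pmaip1 the early libraries spread from 909 to 2007 and the late ones from 1274 to 1645, and in Bcl2l11 both day 20 libraries lie lowest.

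For each member, the gene outside the family whose log2 values followed it most closely over the 12 libraries was sought, after the mean of each library set was taken off. The 12 libraries come from 6 cultures, the most similar gene was picked from all genes tested, and the correlations are given as a description. Pmaip1 was followed by Ppp1r15a, which encodes the stress-induced regulatory subunit GADD34 (Pearson r = 0.96, Spearman rho = 0.96), with r = 0.97 within the ablation and 0.98 within the control libraries. The most similar genes were Rnf19b for Mcl1 (r = 0.97), the lysosomal galactosidase gene Glb1 for Bcl2l11 (r = 0.97), the chromatin remodeler gene Chd7 for Bcl2 (r = 0.95), the uridine phosphorylase gene Upp1 for Bcl2l1 (r = 0.94) and Nudt14 for Bad (r = 0.94). For Bad and Nudt14, r was 0.99 within the ablation and 0.33 within the control libraries. They were Bri3bp for Bid (r = 0.93), Txnl1 for Bax (r = 0.92), Mtmr9 for Bak1 (r = 0.92) and Gm6254 for Bbc3 (r = 0.88).

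Among the genes around the family in the cell death pathway, the only calls were regulators of transcription. Of 81 pathway genes in 7 lists, 74 were tested, with 33 log2 fold changes above 0 and 41 below 0 and a median of -0.02. At an unadjusted p-value under 0.05, the set model had 8 of these (7.85% of all genes) and the pair model had 9 (17.6% of all genes). Of the 74, 5 were higher and 5 lower in all 6 pairs, while 9.8% of all genes had 6 pairs in 1 direction. The set model called 0, and the pair model called 2 higher and 1 lower (1.09% of all genes in either direction). All 3 are transcription factors. Trp63, which maintains basal cells, had 6443 to 8928 normalized counts in the control (median 7645) and 8400 to 11436 after ablation (median 9873). Trp73, which encodes the p53 relative p73 and is needed for multiciliated cells, had 283 to 650 in the control (median 486) and 187 to 564 after ablation (median 288). Jun, an immediate early gene of stress and growth factor signaling, had 2160 to 4058 in the control (median 3261) and 3217 to 4942 after ablation (median 3715). After ablation, Trp63 was higher, Trp73 lower and Jun higher in 6 of 6 pairs each, with respective log2 fold changes of 0.39, -0.62 and 0.31 and adjusted p-values in the pair model of limma of 0.00825, 0.00899 and 0.0209, against 0.187, 0.616 and 0.629 in the set model. Without pair 4 they did not pass in the pair model (adjusted p = 0.0541, 0.0562 and 0.104), nor did they with plain in place of trended, robust eBayes (0.121, 0.121 and 0.163). Trp53 itself, singled out after its value was seen, had 4466 ± 488 normalized counts in the control and 3807 ± 502 after ablation (SD, n = 6), a change of -0.23 on the log2 scale (adjusted p = 0.614 by set and 0.0613 by pair in limma). In the pair model it passed without pair 7 (adjusted p = 0.0177), with quantile normalization (0.0377) and with no filter (0.00520), and it did not without any other pair (0.0753 to 0.195) or with plain eBayes (0.212). Atf4, which transmits the integrated stress response to Pmaip1 and Bbc3 in other settings, was the most abundant of this list (18183 normalized counts) and changed by 0.11 on the log2 scale (adjusted p = 0.320 in the pair model of limma). Ddit3 of the same list, also named after its value was seen, changed by 0.27 and was higher in 5 of 6 pairs. Its adjusted p in limma was 0.629 by set and 0.0919 by pair.

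Among 15 other genes of the BCL2 family, 11 were tested and none was called by either model, with 4 log2 fold changes above 0, 7 below 0 and a median of -0.03. The mitophagy receptor genes Bcl2l13 (4536 normalized counts) and Bnip3l (3113) were the most abundant and changed by 0.06 and -0.03. Bcl2l2, which encodes the anti-apoptotic relative BCL-W, had 1813 normalized counts and a log2 fold change of 0.01, and the effector relative Bok had 830 and -0.02. Bcl2a1b and Bcl2l10 were listed at 0 in every library, and Bcl2a1a and Hrk stayed below the count minimum. All 16 genes of the apoptosome, caspases and their inhibitors were tested, and none was called. Their log2 fold changes, 6 above 0 and 10 below 0, had a median of -0.03 and ranged from -0.15 to 0.12. Birc6 (4205 normalized counts), the gene of a large ubiquitin ligase that restrains caspases, changed by -0.05, and Birc5, the gene of survivin (3016), by 0.07. Casp9 had 545 and Apaf1 863 normalized counts, with log2 fold changes of -0.03 and -0.04. In the death receptor list, 10 of 11 genes were tested with 9 log2 fold changes above 0, a median of 0.04, a range from -0.01 to 0.39 and no call. Its most abundant genes Tnfrsf1a and Ripk1 changed by 0.01 and 0.06, whereas Fas had only 65.8 normalized counts and Fasl was listed at 0.

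Partners and regulators of the member proteins were not called in either model. The 8 genes of pore partners and membrane regulators had a median log2 fold change of -0.03, with Tmbim6 (14616 normalized counts, log2 fold change -0.06) and the channel gene Vdac1 (8209, -0.03) the most abundant. Vdac2, whose product holds BAK at the outer membrane, was higher in 6 of 6 pairs by a mean of 0.05 (adjusted p = 0.435 in the pair model of limma). It was named after its value was seen, and 9.8% of all genes had 6 pairs in 1 direction. The 9 regulators of member protein had a median of -0.03 as well. Among them, Ywhae (17229 normalized counts), a 14-3-3 gene of the kind that sequesters BAD, changed by -0.05, and Huwe1 (13701), encoding a ubiquitin ligase of MCL1, by -0.06.

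The epithelial identity of the organoids showed in the markers. Krt5 and Krt14, the keratins of basal cells, had 276858 and 239821 normalized counts, and the sum over 6 basal markers ranged from 476385 to 609460 in the control and from 480708 to 624936 after ablation. Of the 4 epithelial markers, Epcam had 12441, Cdh1 15882, Sox2 3717 and Nkx2-1 1954 normalized counts. Luminal Krt8 (25975) and the club cell gene Cyp2f2 (49001) were abundant, whereas the defining secretory gene Scgb1a1 (3.30) and the ciliated cell gene Foxj1 (9.87) were close to 0. The remaining luminal markers Scgb3a2 (13.6) and Muc5b (12.6) were low as well. Of 4 alveolar markers, Sftpc and Sftpb, which define type II cells, were listed at 0 in all libraries, Ager had 15.7 and Hopx 17294 normalized counts, and their sum was 16058 to 19755 in the control and 14306 to 20244 after ablation. The sum of 7 stromal markers was 18.8 to 48.3 normalized counts in the control and 18 to 42.2 after ablation, that of 4 endothelial markers 4.67 to 14.3 and 2.96 to 8.77, and that of 5 immune markers 102 to 173 and 115 to 147, mostly from Cd68. Normalized counts summed to between 27297950 and 28504390 per library, and the lowest value of any member was 284.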

How the data were processed

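Stranded poly(A) libraries of 12 dishes were sequenced with paired ends. The authors processed the reads with nf-core/rnaseq and the GENCODE annotation of GRCm38.p6, and divided the counts of each library by its DESeq2 size factor. The deposited signal values are these normalized counts for 55401 genes. The authors' own fold changes, standard errors, test statistics and p-values in the table were not used. In every library, 100% of the low values were multiples of the value of 1 read. Whole reads were recovered for 9 of 12 libraries (23631212 to 29775699 reads); for ablation 3, ablation 4 and control 4 this value was too close to 1 for the rule applied.

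Log2 values (normalized count + 1) were fitted for 13792 genes that reached 10 normalized counts in 6 or more libraries, of 28534 with any count, in R 4.3.3 with limma 3.58.1 (condition and library set, trended and robust eBayes). p-values were two-sided, and Benjamini-Hochberg adjustment covered all genes tested, with calls at 0.05. An unnamed batch was the second factor in the study's methods. The library set, given by the runs of library numbers in the labels, was taken for it here (set model), and the pair takes its place in the pair model. The study does not say whether its batch was the library set or the pair. Neither model is the study's own DESeq2 fit, and the set model leaves out the pairing of dishes. The lack of calls in the set model is thus not a result of the study's design. Samples of the same number share passage label, culture day and date, and their deviations from the group means correlated across genes with r = 0.618, 0.493, 0.205, 0.317, 0.381 and 0.332 for pairs 1, 3, 4, 5, 6 and 7, so the numbers pair the dishes. edgeR 4.0.16 was run on recovered reads as an alternative. The steps were tested on simulated data.

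Exon lengths and coding sequences came from GENCODE vM21 (98.1% of the listed gene IDs, and identical gene models for the 10 members). The members and lists were chosen with earlier results of these data known. Named are all members, each pathway gene called in either model, the 2 most abundant genes of each list, and the gene most like each member. Further genes of the lists (Bcl2l2, Bok, Casp9, Apaf1, Fas, Vdac2, Trp53, Ddit3, Bcl2a1a, Hrk, Ninj1, Ripk3, Mlkl, Gsdmc, Gsdmd, Gsdme, marker genes and those listed at 0) were named after their values were seen.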

Additional observations from a re-analysis of the deposited data

Results flagged for a closer look

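The Bax count of control 3 (1516 normalized counts) lay far from the other control libraries. Its distance to the nearest of them (1320) made up 0.66 of the range of the group, above the critical value of 0.625 for 6 samples. Of 20 groups looked at (10 members in 2 conditions), this was the 1 that exceeded the limit, and chance flags about 1 in 20. Without pair 3, the log2 fold change of Bax was -0.02 in place of -0.05 (adjusted p = 0.969 in limma's set model).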

How the results depend on the processing

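No member passed an adjusted p-value of 0.05 under any of the 27 alternatives, and the lowest adjusted p-value among the 270 values was 0.123, for Bcl2l11. In 255 of these the direction was kept. The directions of Bcl2l1, Mcl1, Bax, Bak1, Bbc3, Bid and Bad never changed. Bcl2 was above 0 without replicate 3 (0.000179, in both models), without replicate 4 (0.03, in both models), in library set 2 alone with the replicate block (0.00047), and with edgeR on recovered reads (0.02 over 9 libraries and 0.09 over complete pairs with the replicate block). Pmaip1 was below 0 without replicate 3 (-0.03) and without replicate 6 (-0.01), each in both models, with 0.11 the highest value when a pair was left out, in library set 1 alone (-0.08), and with edgeR on recovered reads (-0.03 and -0.06). Bcl2l11 was above 0 in library set 1 alone (0.05). Late minus early differences had the opposite sign in the ablation libraries for Bax (-0.07), Bak1 (0.00158), Bbc3 (0.06) and Pmaip1 (0.04), and without control replicate 4 for Bak1 (0.00293). The cause was not tested.

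The number of genes called was 0 in the set model and 150 with the replicate block. Leaving out each pair gave 0 in the set model. With the replicate block it gave 176, 90, 8, 77, 106 and 140 without pairs 1, 3, 4, 5, 6 and 7. The number was 3 with no filter, 3 with equal totals, 16 in library set 1 alone and 109 in library set 2 alone, each set with the replicate block. Alternatives added after seeing the data, all with the replicate block, gave 356 with no filter, 168 with quantile normalization, 0 with plain eBayes (2190 at an unadjusted p-value under 0.05) and 3 with edgeR on complete pairs. edgeR on 9 libraries called 0 genes (790 at an unadjusted p-value under 0.05). The replicate block changed no call of a member. Every member had at least 284 normalized counts in every library, and the share of counting error in the spread between dishes was not tested.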

Other observations

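Genes of lytic forms of cell death, in which the plasma membrane ruptures, were listed separately. Of 11 such genes, 9 were tested, 8 of them with a log2 fold change below 0 and with a median of -0.10, against 0.00 for all genes tested. Among all 13792 genes, 7103 were below 0. None was called in either model. Gpx4, which protects membrane lipids from peroxidation, was the most abundant (4081 normalized counts, log2 fold change -0.02). Acsl4, whose product makes membranes prone to peroxidation, had 2181 normalized counts and was lower in 6 of 6 pairs (log2 fold change -0.13, adjusted p = 0.101 in the pair model of limma). Ninj1, the gene of the protein that tears the membrane of dying cells, was lower in 6 of 6 pairs as well (-0.21, adjusted p = 0.170 in the pair model of limma) and was named after its value was seen. Ripk3 (1228 normalized counts) and Mlkl (895) of the necroptosis pathway changed by -0.07 and -0.04. Gsdmc and Gsdme stayed at or near 0, while Gsdmd had 899 normalized counts.

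Among the marker genes, Sox2 was the 1 gene besides Trp63 called by the pair model of limma. It changed by -0.17 on the log2 scale (adjusted p = 0.0488, against 0.642 in the set model) and was lower in 6 of 6 pairs. It did not pass in the pair model with any 1 pair left out (adjusted p = 0.0541 to 0.161) or with plain eBayes (0.167). In the same model of limma, Sox2 did pass with quantile normalization (adjusted p = 0.0384) and with no filter (0.0257).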
